A study of Mus musculus with 10 samples.

Results

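Collagens and other extracellular matrix genes were described in cultured adipose stem and precursor cells (ASPCs). There were 49 such genes among the 25229 rows of the count table, listed by symbol, and each of them had a row. They were sorted by role into 7 fibrillar collagens, 3 fibril-associated collagens, 4 microfibrillar and network collagens, 11 basement membrane genes, 7 genes of fibronectin and elastic fibres, 4 crosslinking enzymes, 5 proteoglycans, 6 matricellular genes and 2 serpins. The cells were CD45-CD31-Pdgfra+ cells sorted from the perigonadal white adipose tissue (gWAT) of WT mice, plated and grown to confluence without passaging. There were 10 libraries of total RNA, 5 from cells given DMSO, the vehicle, and 5 from cells given FICZ at 100 nM, which is made from tryptophan by light and is a ligand of the aryl hydrocarbon receptor (AHR), each lysed 6 hr after the addition. Both groups carry the replicate numbers 1 to 5, and a library is named here by its group and number. The age and sex of the mice are not stated in the labels, nor is whether the libraries came from separate animals or cultures, so the p-values measure only the spread between these samples, which may be technical.

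Fibroblast-like stromal cells are the main makers of the connective tissue that holds fat together, and the progenitors of adipocytes belong to that stroma. Fibrillar collagens assemble into cables, basement membrane proteins form the thin sheet that wraps each adipocyte and vessel, and matricellular proteins are secreted to tune how cells meet the matrix without building it. The balance among these layers changes as fat expands and in fibrosis, and AHR, a transcription factor switched on by small ligands, is known chiefly for raising cytochrome P450 genes.

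Total counts ranged from 38328611 in DMSO replicate 1 to 50210111 in DMSO replicate 2, and the 49 matrix genes took up between 5.12% of all counts in FICZ replicate 1 and 6.96% in DMSO replicate 4. Their share was 6.09 ± 0.544% in DMSO and 6.06 ± 0.654% in FICZ (SD, n = 5 libraries each). Levels of different genes were compared per length, as CPM (the usual counts scaled to library size, here with TMM factors) divided by the kilobases of exon that the annotation gives a gene. On that scale, 3 of the 20 most abundant genes in DMSO were matrix genes, as were 7 of the top 50, 11 of the top 100 and 22 of the top 500, out of 24358 genes with a length.

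The labelled cell type was visible in its markers. Pdgfra, the receptor used in the sort, had 1320 ± 88.3 CPM in DMSO (SD, n = 5), while Ptprc, which encodes CD45, had 0.745 ± 0.614 CPM and Pecam1, which encodes CD31, had 1.49 ± 0.122 CPM. The AHR targets responded to FICZ. Of 4 such genes taken as a check, Cyp1a1 (log2 fold change 3.25, adjusted p = 0.0189 by edgeR), Ahrr (1.66, adjusted p = 0.00325) and Tiparp (0.91, adjusted p = 0.0335) were past the threshold of an adjusted p at or under 0.05, and Cyp1b1 (0.62, adjusted p = 0.147) was not. With the replicate number as a block, Tiparp was no longer past it (adjusted p = 0.0509 by edgeR), at a similar log2 fold change of 0.90.

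None of the matrix genes was past the threshold with FICZ. In edgeR's test on the 14251 genes that passed its filter on low counts, which all 49 did, 0 matrix genes were called higher beside 0.0211% of all genes tested, and 0 were called lower beside 0%. The genes called higher over the whole table were 3 in number, the AHR targets named above, and this count depends on the tool and the libraries, with 16 by DESeq2, 25 by DESeq2 with a block for the replicate number, and 1 to 4 when a single library was left out. Entering the replicate number as a block raised that number to 8 genes, or 0.0561% of those tested, 2 of them AHR targets and 0 of them matrix genes, and DESeq2 and limma-voom also called 0. At an unadjusted p at or under 0.05 there were 0 matrix genes higher and 1 lower (2.04%), beside 1.33% and 3.49% of all genes. With the block these became 2 higher and 2 lower (4.08% each), beside 2.48% and 2.17%, which is close to the background for a list of this size.

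Nor did the groups come apart in the single libraries. The 5 FICZ libraries did not lie wholly above or wholly below the 5 DMSO libraries for any of the 49 genes, beside 0.351% of all genes tested for the first pattern and 0.119% for the second. Between libraries of the same number, 1 matrix gene was higher with FICZ in 5 of 5 pairs, beside 4.32% of all genes, and 2 were lower in 5 of 5, beside 2.81%. The median log2 fold change of the 49 genes was -0.02, with 21 positive and 28 negative, against a median of 0.01 over all genes tested, of which 53.8% were positive. Where fewer cells making a transcript and less of it per cell would give the same bulk count, these data cannot tell them apart.

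The size of a difference that the data leave possible was read from the 95% intervals. Over the 49 genes, the median distance from the estimate to an end of the interval was 0.35 on the log2 scale. This was wider than the 0.30 over all genes tested. For 39 of the 49 genes (79.6%) the interval lay wholly within a 1.5-fold change in either direction, beside 71.1% of all genes tested. The 10 others were Col12a1, Col16a1, Col18a1, Fbln1, Eln, Dcn, Lum, Fmod, Thbs1 and Tnc. With the block, 43 of 49 lay within it (87.8%, beside 75.3% of all genes), and Col5a3, Col16a1, Col4a2, Col18a1, Eln and Emilin1 did not.

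**Figure D1:**
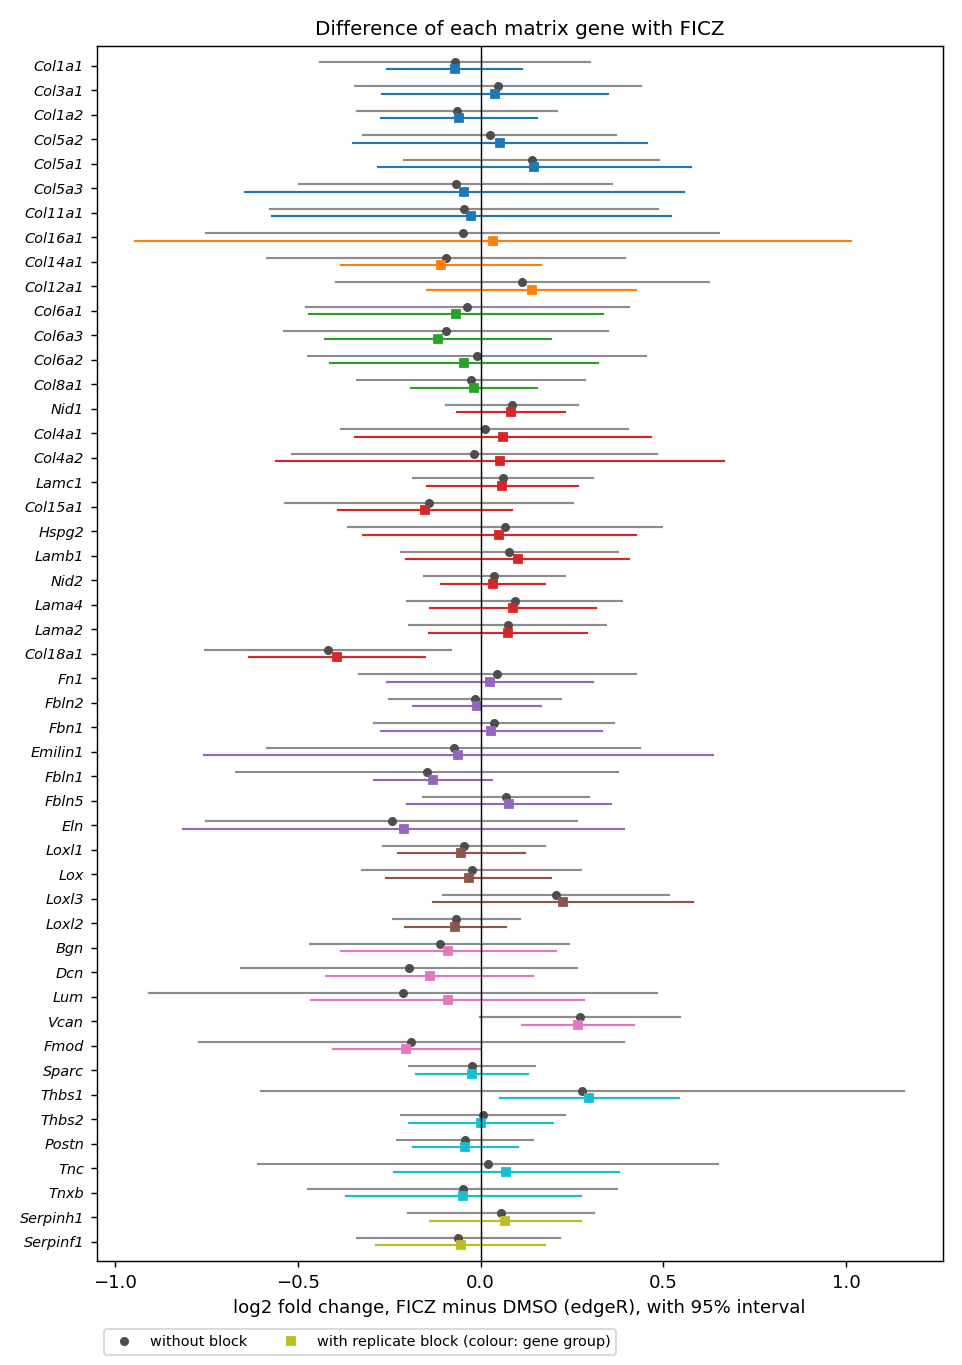
Log2 fold change of each of the 49 matrix genes, FICZ minus DMSO, from edgeR without the block (circles) and with a block for the number (squares, coloured by group of genes), each with its 95% interval. Most estimates sit near 0, and Col18a1 at -0.42 and Vcan at 0.27 have the smallest p-values without the block.

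Fibrillar collagens, the load-bearing cables of connective tissue, were led by the chains of collagen I and collagen III. The level per length in DMSO was 494 ± 106 CPM per kb for Col1a1, 485 ± 107 for Col3a1 and 403 ± 66.1 for Col1a2 (SD, n = 5), which placed them at ranks 43, 46 and 60 of all genes. Between libraries these 3 overlapped, although within each of the 10 libraries Col1a1 lay above Col1a2 on this scale. That order depends on the length used. With the longest coding transcript, Col1a1 lay below Col1a2 in each of the 10 libraries, at a ratio of 0.510 to 0.680. Collagen V, which sits in the core of collagen I fibrils and sets their width, followed with 149 ± 34.6 for Col5a2, 65.7 ± 13.1 for Col5a1 and 22.3 ± 6.32 for Col5a3. Col11a1, a chain of the collagen XI of cartilage, was the least abundant of the 49 genes at 0.570 ± 0.161 CPM per kb and rank 11890.

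The CPM of Col1a1 was 2926, 2680, 2932, 4432 and 3252 in DMSO replicates 1 to 5 and 2378, 2600, 3078, 3969 and 3432 in FICZ replicates 1 to 5. Replicate number 4 was the highest in both groups, the groups overlapped, and FICZ was above DMSO in 2 of 5 pairs. For Col5a1, which had the smallest p of the fibrillar collagens, the values were 574, 548, 682, 604 and 380 in DMSO and 520, 605, 503, 735 and 711 in FICZ. DMSO replicate 5 was the lowest of the 10 and FICZ was above its partner in 3 pairs, with a log2 fold change of 0.14 (95% interval -0.21 to 0.49, adjusted p = 0.999 by edgeR), which became 0.03 without DMSO replicate 5. Over the 7 fibrillar collagens the median log2 fold change was -0.04, with 3 positive and 4 negative and a range from -0.07 to 0.14.

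Fibril-associated collagens coat the surface of those cables and were present at similar low levels. Col16a1 had 20.4 ± 8.58 CPM per kb in DMSO, Col14a1 19.4 ± 5.58 and Col12a1 17.5 ± 5.51, and the 3 did not differ beyond their spread. Col16a1 had 159, 169, 198, 116 and 48.5 CPM in DMSO and 136, 148, 75.5, 139 and 167 in FICZ. It was low in DMSO replicate 5 and in FICZ replicate 3, which gave pair differences from -1.39 in number 3 to 1.78 in number 5 on the log2 scale and a fold change of -0.05 between the groups. Col12a1, with the smallest p of these genes, had 283, 312, 370, 206 and 159 CPM in DMSO and 228, 332, 402, 235 and 243 in FICZ. Its highest library in each group was number 3, the groups overlapped, and the log2 fold change was 0.11 (95% interval -0.39 to 0.62).

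Collagen VI forms beaded microfibrils around cells and is a prominent collagen of fat, and collagen VIII builds hexagonal networks. Col6a1 stood at 55.0 ± 11.1 CPM per kb in DMSO, Col6a3 at 33.7 ± 7.47, Col6a2 at 29.7 ± 6.30 and Col8a1 at 9.83 ± 1.88. Col6a1 had 214, 206, 276, 308 and 200 CPM in DMSO and 177, 194, 177, 311 and 315 in FICZ, and Col6a3 had 318, 351, 463, 530 and 356 in DMSO and 245, 315, 365, 459 and 506 in FICZ. Both were high in number 4 of either group and in FICZ replicate 5, with full overlap of the groups. The log2 fold change was negative for all 4 genes of this group in edgeR's test without the block, between -0.09 and -0.01, none of them larger than the spread between replicates. That sign was not kept under every setting, since the median of -0.03 ran from -0.23 to 0.05 over the alternatives.

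Basement membrane genes were led by Nid1, which encodes nidogen, the link between the laminin and collagen IV networks. It had 317 ± 12.9 CPM per kb in DMSO (SD, n = 5) and rank 85 of all genes, with Col4a1 at 236 ± 68.2, Col4a2 at 155 ± 53.7 and Lamc1, the common gamma chain of laminin, at 108 ± 12.2. Col15a1 and Hspg2, which encodes perlecan, followed with 99.4 ± 20.6 and 74.9 ± 15.1, and Lamb1, a laminin beta chain, with 69.7 ± 13.6. The alpha chains that decide which laminin is made were lower, with 32.2 ± 5.00 for Lama4 and 15.0 ± 2.13 for Lama2. Nid2 had 35.5 ± 2.45 and Col18a1 9.44 ± 2.27 CPM per kb. Of the 5174 exonic bases of Nid2, 437 overlap Rtraf on the opposite strand, so its level is uncertain.

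Nid1 was among the steadiest of the 49 genes. Its CPM was 2109, 2291, 2306, 2153 and 2156 in DMSO and 2037, 2394, 2557, 2336 and 2368 in FICZ. FICZ was above DMSO in 4 of 5 pairs, the groups overlapped, and the log2 fold change was 0.09 (95% interval -0.09 to 0.27). Col4a1 had 1805, 1868, 2449, 1657 and 1026 CPM in DMSO and 1608, 1925, 1760, 1780 and 1804 in FICZ. The 5 FICZ values lay close together, while DMSO held both the highest library, replicate 3, and the lowest, replicate 5.

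Col18a1, which encodes collagen XVIII, the parent of endostatin, had the smallest p of all 49 genes without the block. The gene lies on chromosome 10 from 77052178 to 77166548 of GRCm38. It had 66.0, 47.3, 56.6, 72.3 and 89.2 CPM in DMSO and 43.1, 45.5, 48.1, 56.3 and 55.1 in FICZ. FICZ was below its partner in all 5 pairs, yet the groups overlapped, since DMSO replicate 2 lay below FICZ replicates 3 to 5. The log2 fold change was -0.42 (standard error 0.15, 95% interval -0.75 to -0.08) with an adjusted p = 0.999 by edgeR. The exact two-sided permutation p of log2 CPM, which ignores the pairs, was 0.0476. With the block the log2 fold change was -0.39 (adjusted p = 0.800 by edgeR). Leaving out 1 library at a time, without the block, gave -0.52 to -0.29, the smallest without DMSO replicate 5, the highest library of Col18a1. Liver transcripts, given below, were also highest in DMSO replicates 1, 4 and 5.

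Most other basement membrane genes leaned the opposite way, by little. The median log2 fold change of the 11 genes was 0.06, with 8 positive and 3 negative, and the positive ones lay between 0.01 and 0.09, within their spread. Without DMSO replicate 5 the estimates of Col4a1, Lamb1 and Hspg2 became -0.13, -0.04 and -0.04, and the median of the group became -0.04, so its sign rested on that library.

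Fn1, which encodes fibronectin, the first scaffold on which other fibres are laid, was among the most abundant of the 49 genes per length, with 747 ± 120 CPM per kb in DMSO and rank 16 of all genes, which did not differ beyond its spread from Serpinh1 or Bgn. Its CPM was 7285, 9034, 9932, 10165 and 7240 in DMSO and 5689, 8757, 9554, 10874 and 10195 in FICZ. FICZ replicate 1 was the lowest and FICZ replicate 4 the highest, so FICZ spanned the DMSO values, with a log2 fold change of 0.05 (95% interval -0.33 to 0.42). Fbln2 had 480 ± 59.1 CPM per kb, Fbn1, the fibrillin of microfibrils, 178 ± 28.5, Emilin1 52.5 ± 14.5, Fbln1 29.6 ± 9.69 and Fbln5 16.8 ± 2.36. Of the 12128 exonic bases of Fbn1, 2442 overlap Gm9913 on the opposite strand, so its level is uncertain.

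Eln, the elastin gene, was scarce by comparison at 4.11 ± 1.37 CPM per kb, second from the bottom of the 49 genes. It had 30.6, 30.1, 39.7, 47.8 and 18.3 CPM in DMSO and 26.2, 24.2, 21, 33.2 and 35.8 in FICZ. FICZ was below DMSO in 4 pairs and above it in number 5, where DMSO replicate 5 was the lowest of all libraries. The estimate was -0.24 on the log2 scale (95% interval -0.75 to 0.26, exact permutation p = 0.468), and it ranged from -0.40 without DMSO replicate 5 to -0.08 without DMSO replicate 4. The 7 genes of fibronectin and elastic fibres had a median of -0.02, with 3 positive and 4 negative.

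The lysyl oxidases join collagen and elastin chains by oxidising their lysines. Loxl1 had 254 ± 17.1 CPM per kb in DMSO and Lox 230 ± 30.2, which overlapped, against 62.6 ± 12.5 for Loxl3 and 40.7 ± 2.32 for Loxl2. The value of Loxl2 is uncertain, since 45.0% of the 50-base words of its transcripts also occur in those of Gm21451 and Gm45509. Loxl1 had 877, 835, 800, 911 and 771 CPM in DMSO and 738, 762, 779, 1014 and 771 in FICZ. FICZ replicate 4 stood above the other 9 libraries and the groups otherwise overlapped, with a log2 fold change of -0.05.

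Loxl3 had 278, 327, 334, 309 and 193 CPM in DMSO and 298, 340, 295, 362 and 366 in FICZ. It was higher with FICZ in 4 of 5 pairs, and most of that came from number 5, where the difference was 0.92 on the log2 scale. Its estimate was 0.21 (95% interval -0.10 to 0.52, exact permutation p = 0.198), and it ranged from 0.09 to 0.27 when 1 library was left out, the smallest without DMSO replicate 5. Of its exonic bases, 535 overlap those of Htra2 on the opposite strand, so part of the count may belong to that gene, because the sources used here do not say whether strand was used in counting.

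Among proteoglycans, Bgn, which encodes biglycan, was far above the rest with 680 ± 176 CPM per kb in DMSO and rank 22 of all genes. Dcn, the decorin gene, had 170 ± 60.8 and Lum, the lumican gene, 105 ± 60.4, and these overlapped, while Vcan, the gene of the large chondroitin sulfate proteoglycan versican, had 45.1 ± 5.60 and Fmod, the fibromodulin gene, 10.3 ± 3.22. The order depends on the length used. When the longest coding transcript replaced the union of exons, Dcn moved from place 17 to place 8 of the 49 genes, Bgn to place 2, ahead of Fn1, and Serpinh1 to place 6.

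Bgn had 3528, 3507, 3564, 4125 and 6007 CPM in DMSO and 3331, 3408, 3964, 4647 and 3835 in FICZ. Lum had 174, 181, 148, 273 and 508 CPM in DMSO and 233, 172, 166, 236 and 302 in FICZ. Both were highest by a wide margin in DMSO replicate 5, and the other 9 libraries overlapped. In edgeR's test the log2 fold change was -0.11 for Bgn and -0.21 for Lum (95% interval -0.91 to 0.48), and without DMSO replicate 5 these became 0.06 and 0.19, of the opposite sign.

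Vcan lies on chromosome 13 from 89655312 to 89742509. It had 536, 652, 644, 763 and 669 CPM in DMSO and 595, 802, 776, 866 and 900 in FICZ. It was the matrix gene that was higher with FICZ in 5 of 5 pairs, by 0.15 to 0.43 on the log2 scale, although the groups overlapped because FICZ replicate 1 lay below 4 of the DMSO libraries. The log2 fold change was 0.27 (standard error 0.12, 95% interval -0.00 to 0.54, adjusted p = 0.999 by edgeR), and the exact permutation p was 0.0873. Leaving out 1 library at a time gave 0.19 to 0.36. With the block it was 0.27 (standard error 0.07, 95% interval 0.11 to 0.42, adjusted p = 0.753 by edgeR), the smallest p of the 49 genes in that fit. The other 4 proteoglycans had negative estimates, and the median of the 5 was -0.19, but 0.06 without DMSO replicate 5, so this sign too rested on that library.

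Fmod, on chromosome 1 from 134037254 to 134048277, had 27.5, 21, 35.2, 49.2 and 37.0 CPM in DMSO and 22.9, 19.3, 33.9, 47.1 and 25.8 in FICZ. It was below its partner in 5 of 5 pairs, but by far less than the numbers differed among themselves, with number 4 highest and number 2 lowest in both groups. Its log2 fold change was -0.19 (standard error 0.26), and -0.20 with the block (standard error 0.09, adjusted p = 0.929 by edgeR). Without the block it hung on single libraries, from -0.41 without FICZ replicate 4 to -0.02 without DMSO replicate 4.

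Sparc, a matricellular gene whose protein binds collagen and calcium, was the most abundant of the 49 genes per length, with 1387 ± 62.6 CPM per kb in DMSO and rank 8 of all genes. Its CPM was 5170, 5016, 5073, 5524 and 5490 in DMSO and 5203, 4890, 5288, 5560 and 4902 in FICZ. The groups overlapped throughout, the highest library was 1.14 times the lowest, the narrowest range of the 49 genes, and the log2 fold change was -0.02 (95% interval -0.20 to 0.15). Thbs1 and Thbs2, the thrombospondins, had 291 ± 144 and 185 ± 16 CPM per kb, Postn 64.2 ± 5.45, Tnc 22.5 ± 9.12 and Tnxb, which shares 6.41% of its 50-base words with Tnxa, 12 ± 3.20.

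Thbs1 was the opposite of Sparc in steadiness. The gene, on chromosome 2 from 118111876 to 118127133, had 2000, 2094, 2932, 1089 and 734 CPM in DMSO and 1910, 2349, 3842, 1685 and 945 in FICZ. Number 3 was the highest and number 5 the lowest in both groups, and the highest library was 5.24 times the lowest, the widest range of the 49 genes. Its log2 fold change, the most positive of the 49 genes, was 0.28 (standard error 0.40, 95% interval -0.60 to 1.16). With the block it was 0.30 (standard error 0.10, adjusted p = 0.929 by edgeR), with FICZ above DMSO in 4 of 5 pairs. Without the block, leaving out 1 library at a time gave -0.04 to 0.54, the lowest without FICZ replicate 3.

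Tnc, the tenascin C gene, had 203, 149, 276, 160 and 84.9 CPM in DMSO and 147, 169, 271, 177 and 122 in FICZ. As for Thbs1, number 3 was highest and number 5 lowest in both groups. Postn, which encodes periostin, had 509, 558, 524, 631 and 572 CPM in DMSO and 504, 504, 543, 585 and 577 in FICZ. Its 10 libraries lay within 1.25 times of each other, and its log2 fold change was -0.04 (95% interval -0.23 to 0.14). The median of the 6 matricellular genes was -0.01, with 3 positive and 3 negative.

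The serpins of this list do not inhibit proteases in the usual sense. Serpinh1, the chaperone that folds procollagen in the endoplasmic reticulum, had 739 ± 112 CPM per kb in DMSO and rank 19 of all genes. It had 1939, 1855, 1992, 1915 and 1325 CPM in DMSO and 1878, 1805, 1851, 2119 and 1731 in FICZ. DMSO replicate 5 stood below the other 9 libraries, and the log2 fold change was 0.06. Serpinf1, the gene of pigment epithelium-derived factor, had 321 ± 54.4 CPM per kb. In single libraries it had 689, 644, 689, 798 and 963 in DMSO and 681, 627, 747, 877 and 695 CPM in FICZ, with DMSO replicate 5 the highest and a log2 fold change of -0.06 (95% interval -0.34 to 0.22).

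**Figure D2:**
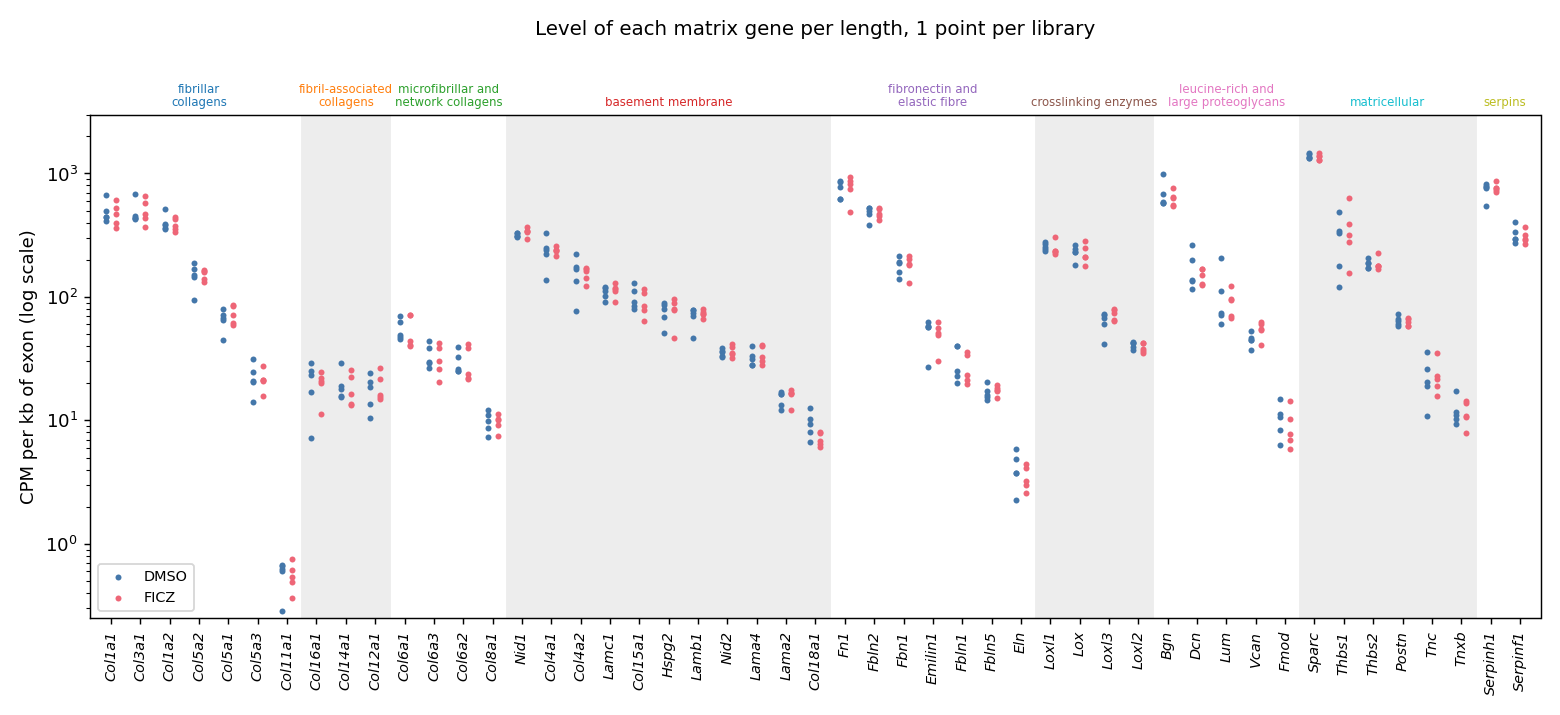
Level of each of the 49 matrix genes per kilobase of exon, on a log scale, with 1 point for each library of DMSO (blue) and FICZ (red), ordered by group of genes. Sparc is highest at 1387 CPM per kb in DMSO and Col11a1 lowest at 0.570, and the points of DMSO and FICZ overlap for every gene.

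Among these 3 of the 9 groups, set side by side as summed levels per length, matricellular genes came first, then fibrillar collagens, then basement membrane genes. The lead of the matricellular genes comes from dividing by length, since as a share of all counts in DMSO the fibrillar collagens led with 1.53 ± 0.273%, beside 0.924 ± 0.0423% for the matricellular and 0.919 ± 0.121% for the basement membrane genes. The sums in DMSO were 1962 ± 90.6 CPM per kb for the 6 matricellular genes, 1620 ± 280 for the 7 fibrillar collagens and 1152 ± 174 for the 11 basement membrane genes (SD, n = 5), and in FICZ they were 2000 ± 199, 1603 ± 261 and 1176 ± 106. They made up 21.6 ± 1.19%, 17.8 ± 1.95% and 12.7 ± 1.58% of the summed level of the 49 genes in DMSO, and 22.1 ± 2.57%, 17.6 ± 1.95% and 13.0 ± 0.611% in FICZ. The sum of the matricellular group was mostly Sparc, and its lead over the fibrillar group was not kept in every library.

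In single libraries, the fibrillar sum was 1474, 1480, 1587, 2111 and 1447 in DMSO and 1388, 1438, 1414, 1877 and 1898 in FICZ. The basement membrane sum was 1120, 1199, 1370, 1184 and 889 in DMSO and 996, 1205, 1182, 1272 and 1226 in FICZ. The matricellular sum was 1959, 1951, 2100, 1957 and 1845 in DMSO and 1941, 1945, 2316, 2028 and 1774 in FICZ. The fibrillar sum passed the matricellular one in DMSO replicate 4 and FICZ replicate 5, and the basement membrane sum was the smallest of these sums in each of the 10 libraries. Between FICZ and DMSO the log2 difference was -0.01 for the fibrillar, 0.04 for the basement membrane and 0.02 for the matricellular sum, each inside the spread of the pairs, which ran from -0.17 to 0.39, from -0.21 to 0.46 and from -0.06 to 0.14.

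**Figure D3:**
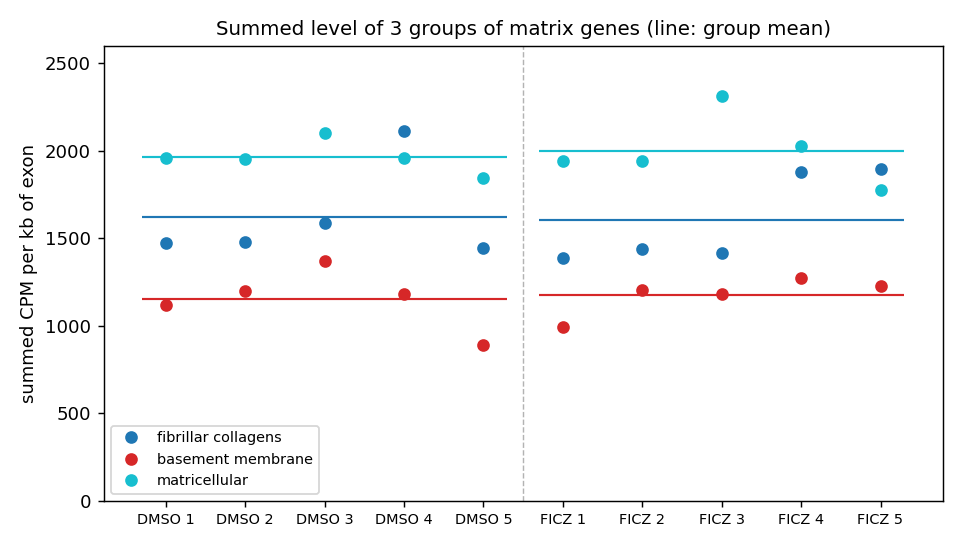
Summed CPM per kb of exon of the fibrillar collagens, basement membrane genes and matricellular genes in each of the 10 libraries, with a line at the mean of each group of 5. The basement membrane sum is lowest in DMSO replicate 5 at 889, and the fibrillar sum exceeds the matricellular one in DMSO replicate 4 and FICZ replicate 5.

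Chains that are built into the same protein were compared within each library, and the ratios were alike in DMSO and FICZ. Col6a1 to Col6a2, which join in equal parts in collagen VI, had a ratio of 1.85 ± 0.0614 in DMSO and 1.83 ± 0.0644 in FICZ on the scale of CPM per kb, although the highest library of each gene was 1.78 and 1.90 times its lowest. Other ratios varied more. Col4a1 to Col4a2 had 1.56 ± 0.161 and 1.58 ± 0.205, and Lamb1 to Lamc1 0.640 ± 0.0738 and 0.657 ± 0.0474. The ratio of Col1a1 to Col1a2 was 1.22 ± 0.119 in DMSO and 1.22 ± 0.137 in FICZ. These values rest on the lengths used and are not read here as an imbalance between chains. With the longest transcript of each gene the ratio in DMSO was 0.583 for Col1a1 to Col1a2, 1.10 for Col6a1 to Col6a2 and 1.01 for Lamb1 to Lamc1. The ratios of Col5a1 to Col5a2 and of Col6a3 to Col6a1 were 0.446 ± 0.0402 and 0.613 ± 0.0415 in DMSO, and 0.476 ± 0.0484 and 0.597 ± 0.0954 in FICZ.

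Levels of matrix genes varied between replicate numbers. The mean of the pairs ranged further over the 5 numbers than FICZ and DMSO differed for all 49 genes, but so it did for 98% of all genes tested, and the median range was 0.54 on the log2 scale beside 0.43 over all genes. The pair mean was highest in number 4 for 30 of the 49 genes (61.2%, beside 16.9% of all genes tested) and lowest in number 1 for 20 (40.8%, beside 17.2%). It was lowest in number 5 for 18 (36.7%), near the 31.6% of all genes. An F-test of the replicate number in edgeR's blocked fit called 257 genes, or 1.8% of all those tested, and 3 of the 49 matrix genes (6.12%), namely Thbs1 (adjusted p = 0.0183), Fbln1 (adjusted p = 0.0271) and Fmod (adjusted p = 0.0361). At an unadjusted p at or under 0.05 it called 14 of 49 (28.6%), beside 19.6% of all genes.

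Fbln1, which encodes a fibulin found in elastic fibres and basement membranes, lies on chromosome 15 from 85205949 to 85286535. It had 110, 99.3, 87.3, 174 and 175 CPM in DMSO and 101, 85.4, 92.4, 157 and 147 in FICZ. Numbers 4 and 5 were above numbers 1 to 3 in both groups, with no overlap between those numbers. Lum, Dcn and Col14a1 were also higher in numbers 4 and 5 than in number 2 in both groups, while Thbs1, Tnc and Lox had their highest values in number 3. Of the cell-type markers given below, the F-test of the replicate number called Adipoq (adjusted p = 0.0183), Plin1 (adjusted p = 0.0311) and Dpp4 (adjusted p = 0.0467). It called no immune, endothelial, mesothelial, mural or hepatocyte marker. Adipoq, an adipocyte marker, was also higher in numbers 4 and 5 than in numbers 1 to 3 in both groups. What the numbers stand for was not tested. Without both libraries of number 5 the same test called 11 matrix genes (22.4%), Fbln1, Fmod and Thbs1 among them, beside 433 genes in all (3.04%).

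**Figure D4:**
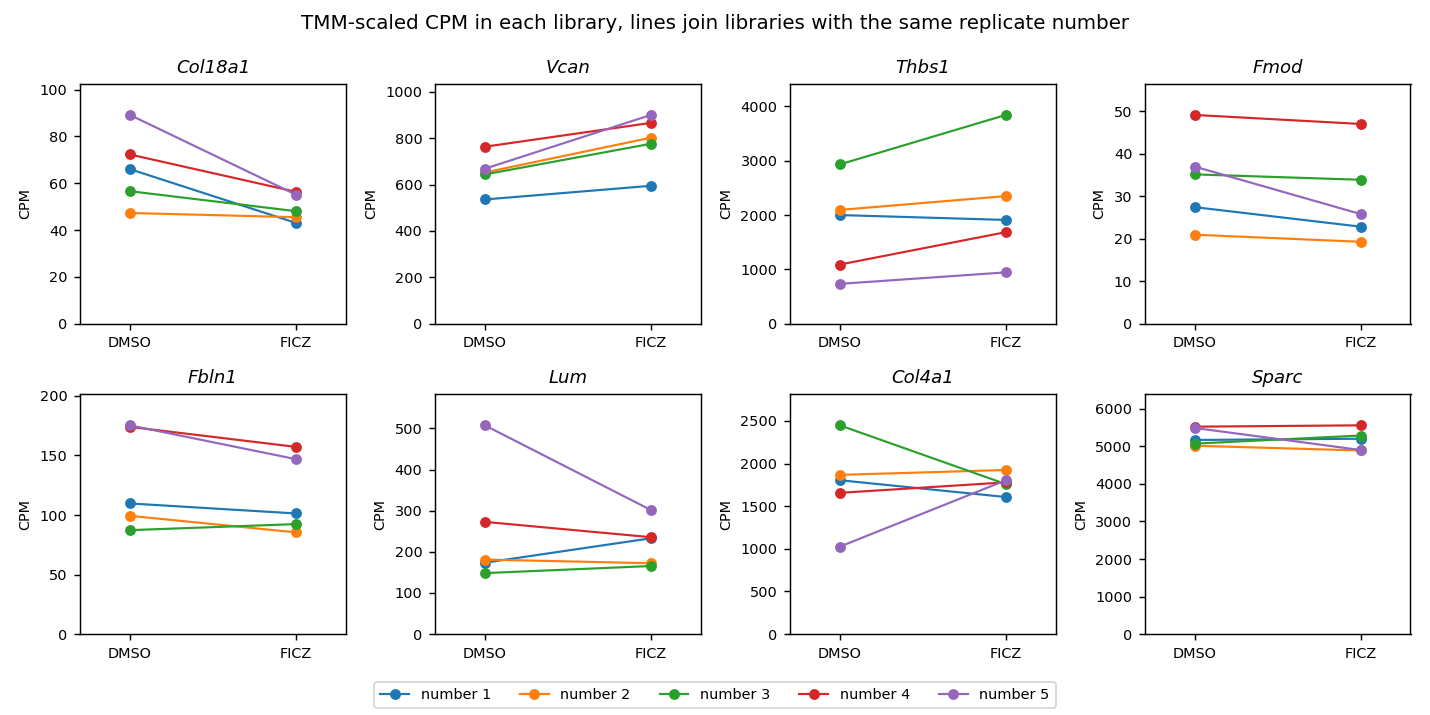
TMM-scaled CPM of 8 matrix genes in each library, on axes that start at 0, with a line joining the DMSO and FICZ libraries of the same replicate number. Thbs1, Fmod and Fbln1 keep much the same order of numbers in both groups, Vcan goes up and Col18a1 down in all 5 pairs, and Sparc hardly varies, between 4890 and 5560 CPM.

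The pairs disagreed on the direction of the list. With FICZ, 8 of the 49 genes were higher in pair 1, 12 in pair 2, 18 in pair 3, 30 in pair 4 and 38 in pair 5, or 16.3% to 77.6%, while between 50.3% and 55% of all genes tested were higher in each pair. The median log2 difference of the 49 genes went from -0.14 in pair 1 to 0.43 in pair 5, beside medians over all genes of 0.00 and 0.03. Matrix genes often vary together, so these counts are not of independent genes. In pair 5, DMSO replicate 5 was the lowest of the 10 libraries for 17 matrix genes, among them Col4a1, Col4a2, Col5a1, Col5a2, Col16a1, Emilin1, Serpinh1 and Thbs1, and the highest for 7, which were Col18a1, Fbln1, Fbln5, Dcn, Bgn, Lum and Serpinf1. It stood apart over the whole table as well, being the lowest for 29.4% and the highest for 28.3% of all genes tested, beside 34.7% and 14.3% of the 49. FICZ replicate 1 was the lowest for 18 (36.7%, beside 9.6% of all genes), including Fn1, Hspg2, Lama2 and Lamc1.

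DMSO replicate 5 also stood apart in its liver transcripts. All 11 hepatocyte markers on a list of them were counted in each library, with a summed level of 3304, 1210, 1296, 2993 and 8079 CPM in DMSO and 1802, 1556, 1720, 1183 and 1590 in FICZ. Their most abundant gene was Alb, the albumin gene, with between 29599 and 232987 counts per library, and none was at 0. Their median log2 fold change was -1.12, or -0.76 with the block, a size that leans on DMSO replicate 5. None was past the threshold, and 11 of 11 were lower at an unadjusted p at or under 0.05, beside 3.49% of all genes. In DMSO, Col18a1 ran nearly in the order of these sums, with replicates 1, 4 and 5 above 2 and 3, but in FICZ it did not, and replicate 4, with the lowest sum, had the most Col18a1. Their part in the Col18a1 difference, and in the high Bgn, Lum, Dcn, Fbln1, Fbln5 and Serpinf1 of DMSO replicate 5, was not tested.

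Base composition was compared with the deviation of each library. Across the 49 genes, the correlation between the GC content of the longest transcript and the deviation of a library from its group mean was -0.42 in DMSO replicate 5 and -0.24 in FICZ replicate 3, against 0.36 in DMSO replicate 3. It is a description over genes that share a library and are not independent. The 8 matrix genes over 60% GC had a median deviation of -0.56 on the log2 scale in DMSO replicate 5, while the 14 under 50% GC had 0.01. Over the 14026 genes tested with a GC value the correlations were weaker, -0.18 in DMSO replicate 5, -0.14 in FICZ replicate 3 and 0.05 in DMSO replicate 3, and the strongest were in other libraries, 0.27 in FICZ replicate 4 and 0.20 in DMSO replicate 1. Of the 8 genes over 60% GC, Col16a1, Emilin1, Col5a3 and Col4a2 had their lowest value in DMSO replicate 5, while Col18a1, at 60.8% GC, had its highest there. Gene length moved with FICZ replicate 1, where the correlation of the deviation with log2 exon length was -0.35 over all those genes and -0.48 over the 49, many of which are long (16338 exonic bases for Lama2, 14307 for Hspg2 and 11685 for Fn1). Over the 49 genes the correlation with length was also -0.351 in DMSO replicate 5, 0.355 in DMSO replicate 2 and 0.343 in FICZ replicate 2. In the same libraries it was -0.0686, 0.151 and 0.115 over all genes tested with a GC value. The part of base composition or length in these values was not tested.

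Immune, endothelial, mesothelial and mural markers were scarce. The summed level of 9 immune markers was 32.9, 23.0, 28.9, 26.8 and 48.3 CPM in DMSO and 27.0, 26.2, 34.6, 22.6 and 22.0 in FICZ, with Cd68 the most abundant per length and DMSO replicate 5 again the highest. None of them was past the threshold, and the 7 tested had a median log2 fold change of -0.94, or -0.80 with the block. At an unadjusted p at or under 0.05, 2 of the 7 immune markers tested were lower (C1qa and C1qb), as were 1 of 6 mesothelial (Krt8) and 1 of 6 adipocyte markers (Cidec), each highest in DMSO replicate 5. The 9 endothelial markers summed to 82.7 ± 9.69 CPM in DMSO and 80.2 ± 6.84 in FICZ, led per length by Tek, which makes up most of the sum, and the 7 tested had a median log2 fold change of -0.37. Sums in DMSO and FICZ were, for the 6 mesothelial markers found in the table, 84.6 ± 17.1 and 76.3 ± 7.04 CPM, led per length by Wt1, and for the 7 mural markers 27.8 ± 2.04 and 24.2 ± 4.47, led per length by Myh11 and in CPM by Cspg4. The 7 adipocyte markers summed to 1332 ± 286 and 1224 ± 170 CPM, led per length by Lpl, and Lep was at 0 counts in all 10 libraries. The 8 ASPC markers summed to 2733 ± 191 and 2766 ± 225 CPM, led per length by Pdgfrb. None of the genes in these lists was past the threshold with FICZ.

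The genes around the matrix genes were as quiet. Of 26 enzymes and helpers that hydroxylate, fold, export and trim procollagen, 0 were past the threshold in either direction, with a median log2 fold change of 0.03. The most abundant per length was P4hb, the disulfide isomerase subunit of prolyl hydroxylase, at 503 ± 32.8 CPM per kb in DMSO, and Fkbp14, a prolyl isomerase, had the smallest p (log2 fold change 0.32, adjusted p = 0.999 by edgeR). Of 20 matrix receptors, 0 were past it, with a median of 0.04, Itgb1 the most abundant at 282 ± 24.6 CPM per kb and Itgb8 the smallest p (0.25, adjusted p = 0.999 by edgeR). The 7 other laminins had a median of -0.03 and 0 past it, with Lamb2 the most abundant at 26.9 ± 6.22 CPM per kb and Lamb3 the smallest p (-0.68, adjusted p = 0.999 by edgeR). Of 26 other collagen genes in the table, 16 were tested and 0 were past it, led by Col4a5 at 32.4 ± 4.87 CPM per kb, with Col27a1 at the smallest p (-0.28, adjusted p = 0.999 by edgeR).

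Promoters were looked at for the core of the AHR motif, GCGTG, on either strand. RefSeq windows of GRCm38.p6, from 250 bases before to 50 after a gene's start, were found for 33 of the 49 genes, in 39 windows. The motif lay in 13 of these (33.3%), belonging to 12 genes, against 32.4% of the 32851 windows of all genes, so the matrix genes were near the background. A match is a string of letters and not a bound site.

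Col4a1 and Col4a2 are shown because they start head to head on chromosome 8, Col4a1 on the minus strand (11198423 to 11312826) and Col4a2 on the plus strand (11312805 to 11449287). Their first exons share 22 bases, in capitals in the stretch at chr8:11312801-11312830 (plus strand), and each window held 1 motif, in capitals, 171 bases before the start of Col4a1 at chr8:11312980-11313009 (minus strand) and 105 before that of Col4a2 at chr8:11312688-11312717 (plus strand).
Shared start: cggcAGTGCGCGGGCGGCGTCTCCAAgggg
Col4a1 motif: ctctcggccccgGCGTGccttgctggtgct
Col4a2 motif: cggagggcccggGCGTGagccctgctcacc

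Vcan and Col18a1 had the smallest p-values, with and without the block, and their upstream stretches hold no GCGTG on either strand. That of Vcan is 250 bases at chr13:89742513-89742762 and that of Col18a1 232 bases at chr10:77166549-77166780, both on the minus strand and both the part of a window that lies before the first annotated exon. Nothing has been drawn in capitals in them, because no motif was found. Col18a1 has another window inside the gene, at chr10:77113656-77113955, which held 0 matches and is not shown. Which start these cells use was not tested.
Vcan: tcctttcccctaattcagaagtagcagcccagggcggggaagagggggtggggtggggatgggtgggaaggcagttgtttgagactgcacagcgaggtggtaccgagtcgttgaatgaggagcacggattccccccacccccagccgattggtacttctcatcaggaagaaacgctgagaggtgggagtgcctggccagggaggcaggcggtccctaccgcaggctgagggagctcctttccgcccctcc
Col18a1: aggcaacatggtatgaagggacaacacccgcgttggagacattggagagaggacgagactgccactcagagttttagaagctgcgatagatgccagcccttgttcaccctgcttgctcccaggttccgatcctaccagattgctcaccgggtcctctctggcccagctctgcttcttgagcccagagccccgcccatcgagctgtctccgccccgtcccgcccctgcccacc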

How the data were processed

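Bulk RNA of 10 libraries was analysed, 5 per group. Per the labels, the authors aligned reads with STAR 2.7.7 to mm10 and deposited a table of unnormalized counts by gene symbol. The counting program, its annotation and its use of strand are not given in the sources used here. The members, gene lists and rule for named genes were chosen with earlier results of these data known. Per-library values are given for the most abundant gene and the smallest p of each group, for the extreme fold changes, for the smallest p of the replicate number, and for Postn, Serpinf1, Col1a1, Col4a1 and Sparc.

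Counts were tested with edgeR 4.0.16 (R 4.3.3; quasi-likelihood, TMM, filterByExpr, robust), with Benjamini-Hochberg adjustment over 14251 genes and a threshold of 0.05. The common BCV came to 0.209, or 0.170 under the block. The fits were tested on simulated counts that held no effect of the replicate number. That test does not cover such effects, or a library that stands apart as DMSO replicate 5 did. For single genes, all 252 arrangements of log2 CPM (prior count 2) gave an exact, two-sided permutation p, which ignores the replicate numbers. The labels give both groups the same replicate numbers and do not say what they mark. The numbers were used as pairs and as a block all the same. Across genes, deviations from the group mean correlated at 0.154 to 0.317 in each pair of equal number. The mean of -0.0599 between different numbers follows largely from centring each group on its own mean, so it adds no separate evidence. Single correlations between different numbers are not given here. Libraries of a group differed beyond sampling noise, at 15.7 or more for chi-square divided by degrees of freedom. A count of 3 is 0.0603 to 0.0787 CPM and covers counting error only.

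Lengths, GC content and shared words came from GENCODE M21, to which 96.6% of symbols and all 49 members were matched. Alternatives were RLE or upper-quartile factors, other filters, DESeq2 1.42.0, limma-voom (limma 3.58.1), the block, no robust option, other lengths and leaving out libraries. A planned measure of Gly-X-Y repeats in the collagen proteins was not run.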

Additional observations from a re-analysis of the deposited data

Results flagged for a closer look

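In 11 of 98 sets of 5 libraries (49 genes in each group), the highest or lowest library stood far from the other 4, with a gap to its nearest neighbour that took up most of the range. Chance flags about 1 in 20, or 4.90 of 98, if the sets are independent. They are not, since the genes share libraries. No share over all genes tested is given here, so the count of 11 is not read as particular to the matrix genes. DMSO replicate 5 was the lowest library for 29.4% and the highest for 28.3% of all genes tested. In DMSO replicate 5, Col11a1 (3.65 CPM, gap 0.870 of the range), Lamb1 (458 CPM, 0.795), Emilin1 (133 CPM, 0.879) and Serpinh1 (1325 CPM, 0.826) were far below the other DMSO libraries. In DMSO replicate 4, Col1a2 (6444 CPM, 0.749) and Col3a1 (6631 CPM, 0.915) were far above them.

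In FICZ replicate 1, Lama2 (198 CPM, 0.806) and Hspg2 (667 CPM, 0.715) were far below the other FICZ libraries, as was Col16a1 in FICZ replicate 3 (75.5 CPM, 0.744). Loxl1 in FICZ replicate 4 (1014 CPM, 0.830) and Thbs2 in FICZ replicate 5 (1598 CPM, 0.789) were far above them. What these libraries share was not tested.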

How the results depend on the processing

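No matrix gene was past the threshold in any of the 21 alternatives, and the smallest adjusted p of any of them was 0.311, for Col18a1 by DESeq2 with the block. Of 1029 fold changes of the 49 genes, 1021 moved by less than the SD of the 5 pair differences. There were 134 that changed sign, none larger than 0.28 in edgeR's test without the block. The value after the change could be larger, as for Tnc, which went from 0.02 to -0.36 at its lowest. The alternatives without DMSO replicate 5 and FICZ replicate 3 together, and with the longest transcript, were chosen after seeing the data.

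The number of genes higher with FICZ over the whole table was 3, and became 8 with the replicate block, 16 with DESeq2, 25 with DESeq2 and the block (which also called 1 lower), 8 with the block without both libraries of number 5, and 1 without DMSO replicate 5 and FICZ replicate 3. Leaving out single libraries gave 1 to 4. The replicate block lost the call of Tiparp and changed no call of a matrix gene. The replicate number called 3 matrix genes (6.12%, beside 1.8% of all genes), and 11 without number 5 (22.4%, beside 3.04%). The cause was not tested.

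The chain ratios in DMSO rest on length. As ratios of counts they were 0.646 for Col1a1 to Col1a2, 1.76 for Col4a1 to Col4a2, 0.974 for Col6a1 to Col6a2, 1.67 for Col6a3 to Col6a1, 0.767 for Lamb1 to Lamc1 and 0.394 for Col5a1 to Col5a2. With the longest transcript they were 0.583 for Col1a1 to Col1a2, 1.72 for Col4a1 to Col4a2, 1.10 for Col6a1 to Col6a2, 0.679 for Col6a3 to Col6a1, 1.01 for Lamb1 to Lamc1 and 0.311 for Col5a1 to Col5a2. Depth limits little here, since the scarcest matrix gene, Col11a1, had over 3 CPM in each library.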
